A study of Rattus norvegicus with 9 samples.

Results

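Hdac7, Hist1h1c and H3f3a were followed through all 9 libraries: 3 genes of the 32662 in the count table, and 3 of the 12719 that held enough reads to be tested. Hdac7 encodes histone deacetylase 7, an enzyme of the class that sodium valproate (VPA) acts on. Hist1h1c encodes a linker histone and H3f3a the replacement form of histone H3, so both are chromatin proteins of the kind whose acetylation deacetylases remove. The genes were picked by name from the authors' deposited DESeq2 table of VPA against control. That table lists 1212 genes up to an adjusted p of 0.05, and all 3 genes stand in it as lower with VPA. Their VPA and control values are therefore given as a description, without a test.

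The cells were RN46A, an immortalised rat raphe line labelled as serotonergic. They were held at 33 °C in 5% fetal bovine serum, brought to confluence on collagen and fibronectin, and differentiated for 72 h at 39 °C in 1% serum with N2 supplement. They then received 0.5 mM lithium, 0.5 mM VPA or neither drug (controls) for 72 h, with 3 polyadenylated, unstranded RNA libraries per group. RN46A is a single line, and the labels do not state whether a group's libraries came from separate cultures. A p-value here therefore covers the spread between libraries, and that spread may be technical. Reads assigned to genes numbered 9580591 to 13030300 per library. Of 11 serotonergic markers, 1 (Maob) carried a name in the deposited tables, so the label could not be checked against the others. Maob averaged 1.1 CPM (counts scaled to the size of each library) in control, 0.867 CPM with lithium and 6.72 CPM with VPA. Markers of other cells moved with the groups: the 4 fibroblast markers Col1a1, Col3a1, Dcn and Lum summed to 215 to 497 CPM in the controls, 131 to 204 CPM with lithium and 67.8 to 79.1 CPM with VPA (Lum at 0 with VPA). The 3 named of 5 neuronal markers (Tubb3, Map2 and Nefm) summed to 36.4 to 47.2, 37.9 to 47.9 and 119 to 132 CPM in control, lithium and VPA, and Cd68, the 1 named of 3 leucocyte markers, ranged over 8.53 to 14.2, 12 to 20.9 and 23.3 to 41.3 CPM. The 3 named of 4 glial and neural crest markers did not move together: the means in control, lithium and VPA were 3.99, 3.78 and 1.63 CPM for S100b, 0.0954, 0.212 and 2.59 CPM for Sox10 and 5.44, 7.36 and 26.6 CPM for Erbb3. Of the 16 markers of other cells, 11 had a name. Names belong mostly to genes that the authors listed for VPA, so markers that did not change could be missed. The part of these markers in the results was not tested. In RNA from whole cultures, fewer cells of a type and less RNA per cell cannot be told apart.

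Histone deacetylases take acetyl groups off lysines of histone tails and of other proteins, and acetyltransferases such as Kat2a put them on. Hdac7 belongs to class IIa, whose members have weak catalytic activity of their own, bind transcription factors of the MEF2 family together with NCoR corepressors, and leave the nucleus on 14-3-3 proteins once calcium/calmodulin-dependent or protein D kinases have phosphorylated them. Linker histones such as Hist1h1c bind where DNA enters and leaves the nucleosome. The replacement H3 encoded by H3f3a and its sister gene H3f3b is placed into chromatin outside DNA replication by chaperones such as HIRA and DAXX, and its transcripts carry a poly(A) tail. Most other core and linker histone transcripts are made in S phase and end in a stem-loop instead of a poly(A) tail, so a library of polyadenylated RNA holds only a part of them. What part of the Hist1h1c transcripts was captured was not analysed here.

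The promoters of the genes are shown because transcripts of all 3 genes were lower with VPA while their start regions are of different kinds. Each runs 5′ to 3′ from 250 bases before to 50 after the start in RefSeq (GRCr8), and all 3 genes were matched. Hist1h1c is an older name of 2 RefSeq genes, H1f2 and H1f4, and the files do not say which of them the Ensembl identifier stands for, so both are given. Capitals mark matches on either strand to CCAAT, to TATAAA, to the GC box GGGCGG and to AAACACA, a motif known from linker histone promoters. The cyclic AMP element TGACGTCA and the E-box CACGTG were searched too, with 0 matches in all 4 windows.
Hdac7 (chr7:130840968-130841267, minus strand): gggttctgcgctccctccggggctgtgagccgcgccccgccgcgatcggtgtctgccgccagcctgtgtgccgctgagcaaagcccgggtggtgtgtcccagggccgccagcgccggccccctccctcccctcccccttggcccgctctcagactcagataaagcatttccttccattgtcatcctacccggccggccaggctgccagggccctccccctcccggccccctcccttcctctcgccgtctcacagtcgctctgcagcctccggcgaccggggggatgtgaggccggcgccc
H1f2 (chr17:41820404-41820703, minus strand): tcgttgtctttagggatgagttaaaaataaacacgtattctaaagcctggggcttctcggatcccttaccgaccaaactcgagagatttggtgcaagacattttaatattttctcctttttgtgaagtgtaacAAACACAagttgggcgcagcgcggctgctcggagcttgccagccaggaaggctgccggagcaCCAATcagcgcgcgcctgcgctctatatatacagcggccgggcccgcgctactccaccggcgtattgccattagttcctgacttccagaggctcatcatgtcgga
H1f4 (chr17:41914175-41914474, plus strand): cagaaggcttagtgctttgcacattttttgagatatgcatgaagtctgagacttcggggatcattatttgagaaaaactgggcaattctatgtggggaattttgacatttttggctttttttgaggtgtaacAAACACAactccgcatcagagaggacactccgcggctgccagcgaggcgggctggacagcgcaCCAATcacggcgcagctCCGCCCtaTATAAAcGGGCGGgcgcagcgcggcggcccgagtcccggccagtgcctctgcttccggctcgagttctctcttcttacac
H3f3a (chr13:95076646-95076945, minus strand): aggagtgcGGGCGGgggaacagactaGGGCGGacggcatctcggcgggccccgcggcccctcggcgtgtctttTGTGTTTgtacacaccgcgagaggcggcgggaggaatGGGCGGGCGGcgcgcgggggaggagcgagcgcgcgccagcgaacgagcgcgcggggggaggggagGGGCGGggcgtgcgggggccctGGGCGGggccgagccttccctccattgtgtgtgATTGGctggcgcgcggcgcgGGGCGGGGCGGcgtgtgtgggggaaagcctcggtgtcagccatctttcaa

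Both linker histone windows held AAACACA, 117 bases before the start in H1f2 and 118 in H1f4, and CCAAT 55 bases before it. H1f4 also held TATAAA at 30 bases before the start and 2 GC boxes, neither of which was found in H1f2. Only exact strings were searched, and the H1f2 window holds tatatata between its CCAAT and the start. The H3f3a window held 8 GC boxes (2 pairs of them overlapping), 1 CCAAT and 1 AAACACA on the opposite strand. The Hdac7 window held 0 matches to any of the 6 motifs. Its GC content of 72.7% was close to the 74.7% of H3f3a and above the 52% of H1f2 and 53.7% of H1f4; the median of 33469 RefSeq promoters was 51.7%. Of those promoters, 37.5% held CCAAT, 33.1% a GC box, 14.2% TATAAA, 6.99% AAACACA, 6.42% the E-box and 1.83% the cyclic AMP element. A match is a string of letters, not a demonstration of a bound factor.

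Hdac7 (ENSRNOG00000055597) was at 52.7, 38 and 72.3 CPM in control libraries 1, 2 and 3, at 42.8, 44.5 and 59.3 CPM with lithium, and at 27.5, 32.1 and 36.1 CPM with VPA. The 3 VPA libraries lay below every control and lithium library, though VPA 3 came within 1.85 CPM of control 2. In each group the library numbered 3 had the most Hdac7. Means were 54.3 ± 17.2, 48.9 ± 9.09 and 31.9 ± 4.31 CPM (SD, n = 3) in control, lithium and VPA. Read counts of 300 to 814 per library put counting error at 4.15% of the control mean, against a coefficient of variation of 31.7% between the controls.

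Hist1h1c (ENSRNOG00000054978) was at 149, 184 and 116 CPM in controls 1, 2 and 3, at 170, 174 and 93.2 CPM with lithium, and at 78.2, 66.3 and 101 CPM with VPA. VPA lay below all controls, but VPA 3 was above lithium 3. The third library of each group was the lowest of the control and of the lithium libraries and the highest of the VPA libraries. Means were 149 ± 34, 146 ± 45.4 and 81.8 ± 17.5 CPM (SD, n = 3). The authors' deposited Cufflinks table, which gives 1 value per group and scales by transcript length, has 206 FPKM in control and 110 FPKM with VPA, and places the gene on chromosome 17 from 43636954 to 43640445, in a build not given in the sources used here.

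H3f3a (ENSRNOG00000003220) was at 199, 276 and 149 CPM in controls 1, 2 and 3, at 275, 168 and 175 CPM with lithium, and at 119, 121 and 136 CPM with VPA. The VPA libraries were again below all others, with 12.7 CPM between VPA 3 and control 3. Means were 208 ± 64.1, 206 ± 60 and 125 ± 9.23 CPM (SD, n = 3). The VPA libraries lay close together, with a coefficient of variation of 7.35% against 30.8% in control and 29.2% with lithium. In the authors' deposited Cufflinks table H3f3a stood at 452 FPKM in control, the 16th highest of 1097 listed loci and above the 206 FPKM of Hist1h1c (33rd), and at 264 FPKM with VPA; its locus there is chromosome 13 from 99091246 to 99103285. Hdac7 is not among the loci that this table lists for VPA against control, so its level per length was not analysed here. None of Hdac7, Hist1h1c and H3f3a has a transcript among the 941 listed in the authors' deposited Salmon and sleuth table.

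**Figure D1:**
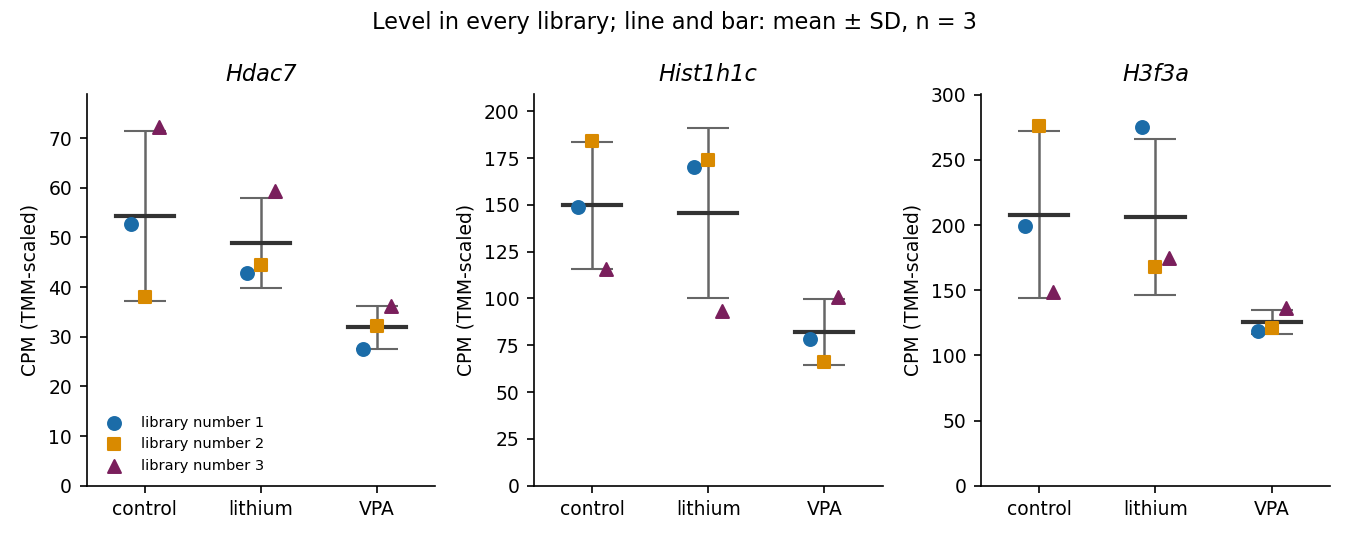
Level of Hdac7, Hist1h1c and H3f3a in CPM (vertical axis from 0) in each of the 9 libraries, by group; symbols give the library number, lines the mean and bars the SD of 3 libraries. The VPA libraries sit at 27.5 to 36.1, 66.3 to 101 and 119 to 136 CPM, below every control, and lithium 3 at 93.2 CPM is below VPA 3 for Hist1h1c.

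Near copies limit the histone values. RefSeq names 21 loci H3f3 followed by further letters, 13 of them pseudogenes, and 9 linker histone genes of the H1f series, while Hdac7 has no second locus by that name. How reads that match several copies were handled is not given in the sources used here, so the counts of Hist1h1c and H3f3a are uncertain. Because the libraries are unstranded, reads of overlapping genes cannot be told apart either. In RefSeq the gene H4cl1 overlaps H1f2 and LOC108351548 overlaps Hdac7, and 0 genes overlap H1f4 or H3f3a.

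On the log2 scale, VPA against control came to -0.77 ± 0.24 (SE) for Hdac7, -0.87 ± 0.26 for Hist1h1c and -0.73 ± 0.25 for H3f3a, or 0.587, 0.548 and 0.603 of the control level. The median of all 12719 genes was -0.010, and 4.89, 3.7 and 5.48% of genes had a lower value than Hdac7, Hist1h1c and H3f3a. The authors' deposited DESeq2 table gives -0.7 for Hdac7 (adjusted p = 0.039), -0.8 for Hist1h1c (0.0083) and -0.7 for H3f3a (0.029). These p-values are what put the genes on the list, and with a limit of 0.05 Hdac7, at place 1099 of 1212, was close to it. In the fit of all 9 libraries with edgeR's quasi-likelihood test, 0 of the 3 genes were among those called at an adjusted p under 0.05, beside 8.7% of all genes called (1106 genes, 380 of them lower, or 2.99%, and 726 higher, or 5.71%). With DESeq2 on the same counts 3 of 3 were called. With the library number as a replicate block, 1 was called (Hdac7), and 3 where that blocked fit was restricted to the VPA and control libraries. In that restricted fit the changes were -0.74 ± 0.17 for Hdac7, -0.87 ± 0.21 for Hist1h1c and -0.69 ± 0.19 for H3f3a (log2 ± SE). The SEs of the fit of all 9 libraries do not take the pairing into account. Since these genes were picked on this contrast, nothing is read from such counts. All 3 genes had groups that did not overlap, as did 11.4% of all genes in the same direction.

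Leaving out 1 library moved the change of Hdac7 and H3f3a most where that library was a control, and that of Hist1h1c about as much without VPA 3 as without control 2. For Hdac7 it was -0.50 ± 0.22 without control 3, the highest control, and -0.98 ± 0.22 without control 2. For H3f3a the order was turned, with -0.48 ± 0.23 without control 2 and -0.91 ± 0.24 without control 3. Hist1h1c ran from -0.70 without control 2 to -1.05 without VPA 3. All 3 genes stayed lower with VPA in every one of the 18 alternative fits.

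**Figure D2:**
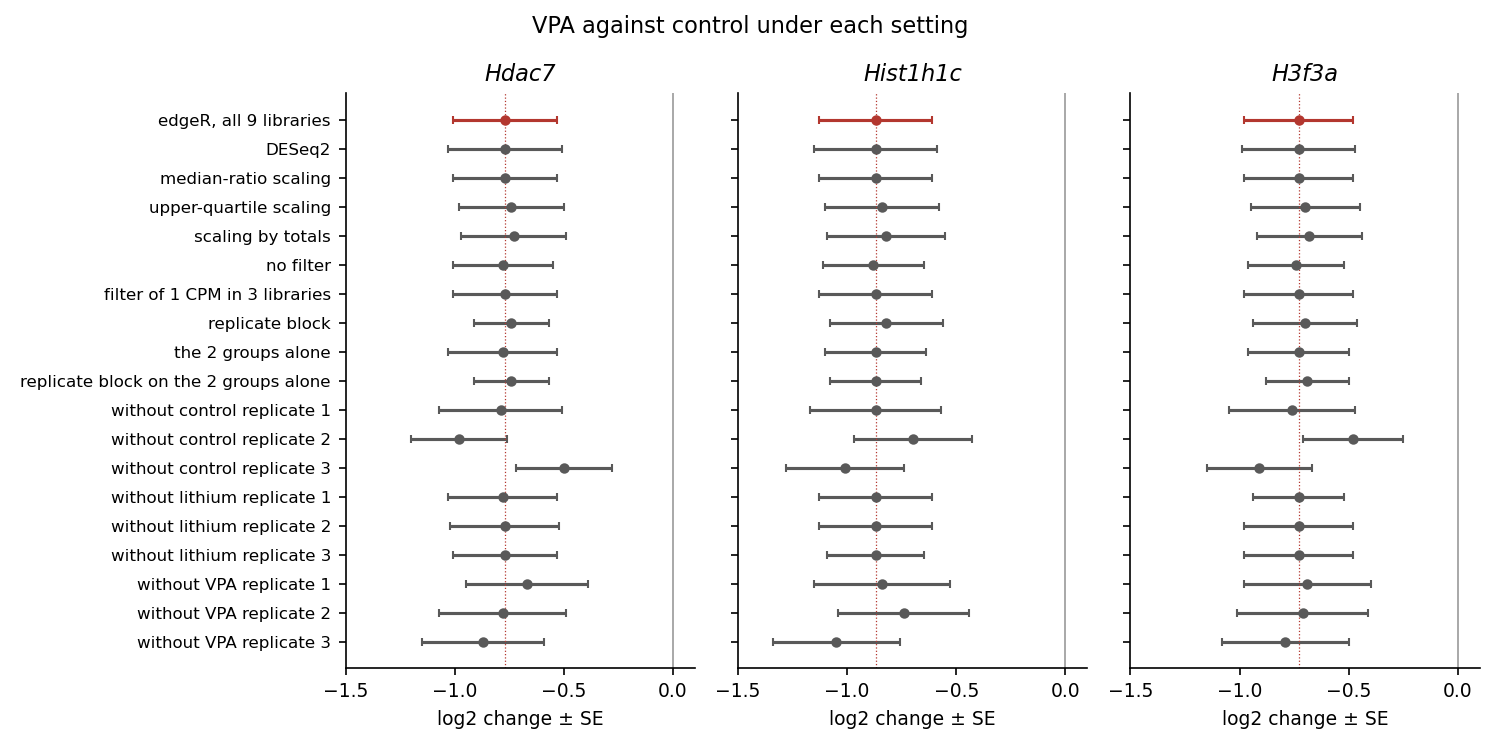
Log2 change with VPA against control (horizontal axis, bars ± SE) of the 3 genes in the fit of all 9 libraries (red) and in 18 alternatives (rows). Values lie between -0.98 and -0.50 for Hdac7, -1.05 and -0.70 for Hist1h1c, and -0.91 and -0.48 for H3f3a, and the ends come from fits without a control library or without VPA 3.

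Same-numbered VPA and control libraries deviated from their group means together over 10288 genes (correlations 0.6, 0.533 and 0.525), and within these pairs the genes parted. Hdac7 with VPA was 0.522 of control in pair 1, 0.846 in pair 2 and 0.5 in pair 3. Counting error alone gave 95% intervals of 0.456 to 0.597, 0.722 to 0.99 and 0.444 to 0.561. These intervals leave out the variation between libraries. The difference was thus smallest in the second pair for the deacetylase, and in the third pair for both histone genes. Hist1h1c was at 0.525, 0.361 and 0.872 of control in pairs 1, 2 and 3, with counting intervals of 0.485 to 0.569, 0.329 to 0.396 and 0.807 to 0.944. H3f3a was at 0.598, 0.439 and 0.915, with intervals of 0.56 to 0.638, 0.409 to 0.471 and 0.854 to 0.979. In pair 3, 32.3 and 36.9% of all genes had a lower log2 difference than these 2 histone genes, and in pair 2, 30.3% had a lower one than Hdac7. With 1 library on each side, a pair has no replicate of its own and the difference between pairs was not tested.

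Lithium against control asks whether the other mood stabiliser altered the same transcripts; its libraries had no part in choosing the genes, though the controls are shared. Hdac7 differed by -0.15 ± 0.24 (log2 ± SE; 95% interval -0.67 to 0.36), Hist1h1c by -0.04 ± 0.26 (-0.61 to 0.53) and H3f3a by -0.02 ± 0.25 (-0.55 to 0.52). Each had an adjusted p of 1 in edgeR's quasi-likelihood test. For all 3 genes the difference between the control and lithium means was smaller than the SD of either group. In the same comparison 0 of 12719 genes (0%) passed with edgeR and 0 with DESeq2, and 116 (0.912%) had an unadjusted p under 0.05 in edgeR. Signs were not stable: the change of Hdac7 was 0.11 without control 3, that of Hist1h1c 0.20 without lithium 3 and that of H3f3a 0.23 without control 2. The authors' deposited lithium table lists 137 genes up to an unadjusted p of 0.0499, and none of Hdac7, Hist1h1c and H3f3a is among them.

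VPA against lithium shares the VPA libraries that chose the genes and is described only. The differences were -0.61 ± 0.24 for Hdac7, -0.83 ± 0.26 for Hist1h1c and -0.71 ± 0.25 for H3f3a (log2 ± SE). With edgeR 0 of 3 genes were among the 7.93% of genes called, and nothing is read from this count because the VPA libraries are shared. The groups did not overlap for Hdac7 and H3f3a and did for Hist1h1c; 13.5% of all genes had every VPA library below every lithium library. In order of mean level, control and lithium were neighbours that differed by less than their spread for each gene, and VPA stood lowest.

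**Figure D3:**
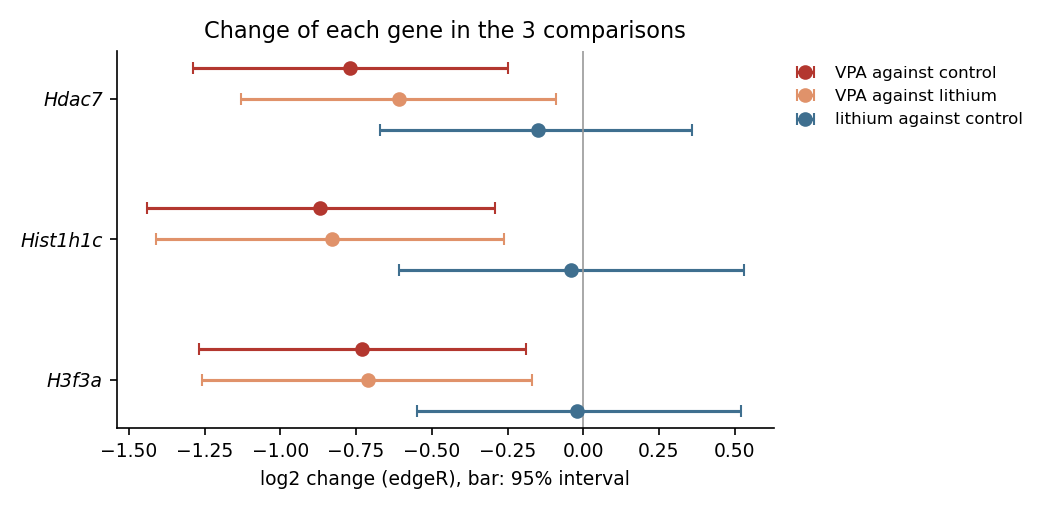
Log2 change (horizontal axis) of Hdac7, Hist1h1c and H3f3a in the 3 comparisons of groups, with 95% intervals from edgeR's fit without pairing. Lithium against control lies at -0.15, -0.04 and -0.02 with intervals on both sides of 0, and VPA lies lower against control (-0.77, -0.87 and -0.73) and against lithium (-0.61, -0.83 and -0.71).

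Among other chromatin and cell cycle genes, names were held for few. Of 269 symbols in 9 lists of deacetylases, acetyltransferases, corepressors, class IIa partners, histones, chaperones and S phase genes, 16 had a name and 15, the 3 genes included, had enough reads. Of 18 deacetylases and sirtuins, Hdac7 was the only member with a name, and of 75 symbols of linker and core histones only Hist1h1c and H3f3a had one. Whether other deacetylases or histones moved was therefore not analysed here. The remaining 12 genes are named because the authors listed them by p-value on these samples, so their counts are not shares of the lists. Their adjusted p-values in edgeR's test, given below, do not allow for that selection. VPA lowered 7 and raised 4 of these 12, and 1 missed the threshold, beside 8.7% of all genes called. With lithium 0 of the 12 passed.

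Of the acetyltransferase and corepressor lists, 3 genes had a name and enough reads. All 3 fell with VPA, beside 2.99% of all genes. Their names come from the authors' lists of genes past a p threshold on this contrast, which makes such calls likely. Chd3, a helicase of the NuRD deacetylase complex, was at 113, 80.7 and 129 CPM in the controls and at 46.2, 33.3 and 38.7 CPM with VPA, groups far apart, and fell by 1.45 ± 0.21 (log2 ± SE; edgeR adjusted p = 0.00206). Mbd3, a methyl-CpG-binding-domain subunit of the same complex, went from 101 ± 23 to 57.2 ± 8.7 CPM (-0.83 ± 0.22, edgeR adjusted p = 0.0389). Brpf3, a scaffold of an acetyltransferase complex, went from 42.8 ± 9.65 to 23.6 ± 2.69 CPM (-0.86 ± 0.21, edgeR adjusted p = 0.0279). The authors' deposited Cufflinks table also lists the acetyltransferase Kat2a at 27.1 FPKM in control and 14.7 FPKM with VPA (q = 0.00157). Brpf3 had its smallest difference in pair 2 (-0.39, against -0.79 in pair 1 and -1.32 in pair 3). The same held for Hdac7 and for the list genes Chd3, Anp32b, E2f2, Cdt1 and Camk4. For E2f2 (-0.85 and -0.80) and Cdt1 (-0.54 and -0.51), as for Chd3, pairs 1 and 2 hardly differed. Pair 1 held the smallest difference for Mbd3, Mcm7, Tk1, Mmp10 and Nap1l3, and pair 3 for Camk2b. Chd3 was lower by more than 1 log2 unit in all 3 pairs (-1.29, -1.27 and -1.74).

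Of the partners and targets of class IIa deacetylases, 3 had a name and all 3 rose, beside 5.71% of all genes; their names come from the authors' list of genes past a p threshold on this contrast, which makes such calls likely. Mmp10, a matrix protease gene that Hdac7 is known to repress through MEF2 in endothelial cells, went from 97.3, 101 and 122 CPM in the controls to 210, 318 and 351 CPM with VPA (1.45 ± 0.29, edgeR adjusted p = 0.00946). Every VPA library was above every control and every lithium library, of which the highest was 142 CPM. The calcium/calmodulin-dependent kinase genes Camk2b and Camk4 changed by 1.23 ± 0.24 and 2.01 ± 0.42 (edgeR adjusted p = 0.00801 and 0.0124), Camk4 from a low 0.391 ± 0.14 CPM. Klf4, a transcription factor gene held by the same list, appears in the authors' deposited Cufflinks table at 54.1 FPKM in control and 31.6 FPKM with VPA (q = 0.00999). Of the histone chaperones, Nap1l3 of the nucleosome assembly family rose by 0.90 ± 0.23 (edgeR adjusted p = 0.0315), and Anp32b, at 579 ± 73.2 CPM in control and 391 ± 10.9 CPM with VPA, did not pass (-0.57 ± 0.16, edgeR adjusted p = 0.0509).

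S phase genes were measured beside the histones because most histone transcripts follow DNA replication. All 4 with a name, which comes from the authors' list of genes past a p threshold on this contrast, fell with VPA, beside 2.99% of all genes: Mcm7 of the replicative helicase (-0.83 ± 0.15), the thymidine kinase Tk1 (-0.98 ± 0.19), the transcription factor E2f2 (-0.92 ± 0.19) and the licensing factor Cdt1 (-0.56 ± 0.14), with adjusted p = 0.00637, 0.00855, 0.0127 and 0.0311 in edgeR's test, which do not allow for that selection. Mcm7 was at 248, 270 and 290 CPM in the controls and 146, 145 and 164 CPM with VPA. Within the numbered pairs its differences were -0.77, -0.90 and -0.82, and those of Tk1 were -0.71, -1.12 and -1.06. Hist1h1c differed by -0.93, -1.47 and -0.20 in pairs 1, 2 and 3, and H3f3a by -0.74, -1.19 and -0.13. E2f2 differed by -0.85, -0.80 and -1.11, and Cdt1 by -0.54, -0.51 and -0.64. A pair holds 1 library on each side, and the part of cell cycle in the histone values was not tested. The mitotic kinase Plk1, in the authors' deposited Cufflinks table only, was at 61.9 FPKM in control and 39.3 FPKM with VPA (q = 0.0348).

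**Figure D4:**
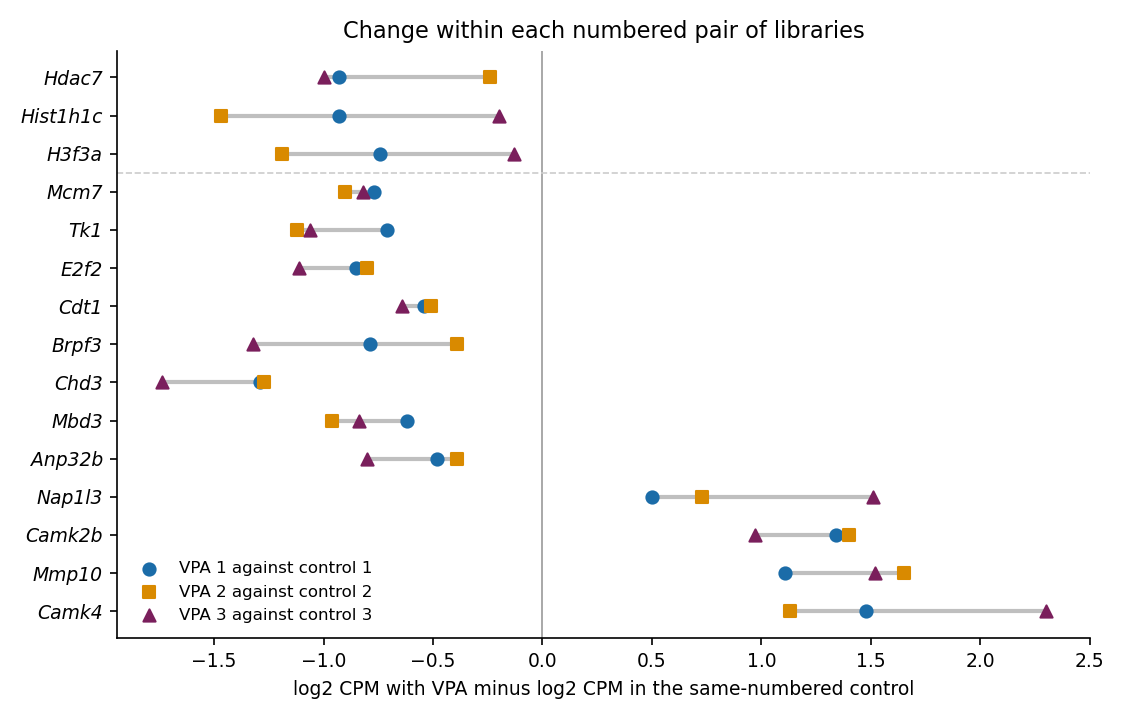
Difference in log2 CPM between each VPA library and the control of the same number (horizontal axis) for the 3 genes (above the dashed line) and the 12 other named list genes. Hist1h1c and H3f3a lie at -0.20 and -0.13 in pair 3, and Hdac7 at -0.24 in pair 2, while Mcm7 lies between -0.90 and -0.77 in all 3 pairs.

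These calls were not all firm. Of the 12 genes, 6 were called without VPA 3, and 7 when control 1, control 3, VPA 1 or VPA 2 was the library left out, against 11 with all libraries and 12 with the library number as a block. Without VPA 3 the adjusted p in edgeR's test was 0.0961 for Brpf3, 0.0576 for Mbd3, 0.0522 for Camk4, 0.0971 for Nap1l3 and 0.0718 for Cdt1. Brpf3 and Nap1l3 also lost their calls without control 1 or 3 or VPA 1 or 2, Mbd3 without control 2 or 3 or VPA 1 or 2, Camk4 without control 1, and Cdt1 without any 1 of the VPA or control libraries or without lithium 3. In the fit of VPA and control alone, Cdt1 and Nap1l3 were not called (edgeR adjusted p = 0.0821 and 0.0616), nor was Cdt1 with no filter (0.0669). Chd3, Camk2b, Mmp10, Mcm7, Tk1 and E2f2 were called in every fit run. Their names come from the authors' lists for this contrast and the fits share libraries, so repeated calls were likely.

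The genes most like each of the 3 were found by Pearson's r of log2 CPM over the 9 libraries, among 1225 other genes with a name and a mean of 1 CPM or more. These names belong mostly to genes that the authors listed for VPA, and the libraries share their groups, so r describes these libraries only. Nearest to Hdac7 were Sfxn3 of the sideroflexin carriers (0.981), the zinc finger gene Zfp710 (0.970) and Rab11b, a GTPase of recycling endosomes (0.968). Nearest to Hist1h1c were a small nucleolar RNA gene named SNORA57 (0.969; 2.15 CPM in control), the spindle protein gene Troap (0.928) and Siglec1 (0.922; 2.23 CPM in control). Nearest to H3f3a were the splicing factor gene Srsf7 (0.964), Amdhd2 of amino sugar metabolism (0.945) and Tfdp1, whose product pairs with E2F factors (0.938). The histone genes resembled each other (r = 0.841) more than either resembled Hdac7 (0.324 for Hist1h1c and 0.264 for H3f3a).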

How the data were processed

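Raw read counts per Ensembl gene, deposited by the authors for 3 control, 3 lithium and 3 VPA libraries, were the main data; HTSeq is per the table's title, and STAR 2.5.1 and Cufflinks 2.2.1 are per the submitters' processing notes, which give no roles. For genome build and gene models nothing is given in the sources used here. The authors' deposited tables further gave log2 fold changes, p-values and q-values from DESeq2, and FPKM from Cufflinks with 1 value per group, per the file headers. The table whose title names kallisto repeats all 1212 lines of the DESeq2 table and was left out.

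Counts were tested with edgeR 4.0.16 in R 4.3.3: TMM scaling, the filterByExpr filter at a minimum count of 10, a quasi-likelihood fit (robust) with 1 mean per group, and two-sided p-values adjusted by Benjamini-Hochberg over 12719 genes, with calls under 0.05. The SE was taken as |log2 change| divided by the root of the F statistic, and 95% intervals use the fit's degrees of freedom. CPM used TMM-scaled totals, log2 CPM a prior count of 2, and 1 count was worth 0.077 to 0.109 CPM. Exact binomial intervals (SciPy 1.17.1) within pairs cover counting error only, and reads without molecular identifiers are not independent molecules.

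The genes and lists were chosen with earlier results of these data known. By the naming rule, the text holds the 3 genes, the 4 list members at most with the smallest p in a list, and the 3 genes most like each; list loci found in the Cufflinks table alone were named after their values were seen. Names came only from the authors' tables. Pairing of VPA with control by title number rests on correlations of 0.6, 0.533 and 0.525 between deviations from group means; lithium 1, 2 and 3 gave -0.418, -0.0815 and 0.801 with their same-numbered controls, while lithium 1 gave 0.681 with control 2 and lithium 2 gave 0.647 with control 1, so fits that block lithium by its numbers do not rest on shown pairs. Alternatives were DESeq2 1.42.0, other scalings and filters, the replicate block, the 2 groups alone, and leaving out each library.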

Additional observations from a re-analysis of the deposited data

How the results depend on the processing

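The log2 changes of Hdac7, Hist1h1c and H3f3a with VPA kept their sign and moved by less than 1 SD between libraries in all 18 alternatives. Against lithium they did so too, at -0.71 to -0.45, -1.07 to -0.69 and -0.84 to -0.44. Lithium against control stayed at adjusted p-values of 0.999 to 1 in each alternative (edgeR or DESeq2), with 0 genes called in all 18. The count of genes called for VPA against control, 1106, was 1741 with the replicate block and 2408 where that blocked fit held the VPA and control libraries only, and 638 to 1026 when 1 library was left out. For VPA against lithium, 1009 became 1609 with the replicate block, in which lithium numbers do not stand for pairs, and 544 to 1197 without 1 library. Of the 15 list genes, 11 were called, and 6 to 11 without 1 library, where fewer samples enter. DESeq2 called 15 and edgeR with no filter 13, in both with Hdac7, Hist1h1c and H3f3a among them. These 3 genes were picked on this contrast, so nothing is read from their calls. Over all 9 libraries, where the lithium numbers do not stand for pairs, the block added Hdac7 and Anp32b to the list genes called and removed none. In fits of VPA and control only, it added Hdac7, H3f3a, Anp32b, Nap1l3 and Cdt1 and removed none. At 300 to 814 reads for Hdac7 and more for the histone genes, counting error was small beside the spread between libraries.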

Other observations

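Brd2, a reader of acetylated histones, was named in the authors' deposited Salmon and sleuth table only, and was singled out after its values were seen. That table lists 1 of its transcripts as lower with VPA (q = 0.0292). The count table holds 18 reads for the same Ensembl gene over all 9 libraries, at most 5 in any of them, too few for a test. For 847 transcripts whose gene is also in the authors' DESeq2 table, the direction was the same in 847, so the table's sign was read as VPA over control.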
